A study of Homo sapiens with 4 samples.

Results

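The 10 genes described here encode cytoplasmic intermediate filament proteins: the type II keratins KRT7, KRT8, KRT80 and KRT81, the type I keratins KRT18, KRT19 and KRT34, the type III proteins vimentin (VIM) and desmin (DES), and nestin (NES), a type IV protein. They were found by their symbols among the 22679 symbols of the deposited files, where each has 1 line and none is part of a joined locus. They were chosen by family, and selected on their FPKM in these same 4 libraries being known, so their values are given as a description and no test was made of them. The RNA came from IMR90 cells, a fibroblast line from human lung, and poly(A) RNA of 1 library in each of 4 groups was sequenced. Cells in oncogene-induced senescence (OIS) carried a retroviral ER:H-RasV12 fusion, switched on with 10 nM tamoxifen for 8 days. H3.3cs1 late and H3.3cs1 early cells carried a retrovirus for Flag-tagged H3.3, a replacement histone, in its cleaved form, and were taken at day 13 and day 3 after infection. Growing cells carried the empty pBabe retrovirus and were grown for 13 days. All were at passage 16. From these groups, the comparisons ask how expression in cells with the cleaved histone stands next to RAS-driven senescence and to growing cells.

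Intermediate filaments are ropes of coiled-coil proteins that carry mechanical load in the cytoplasm. Keratins form filaments only as pairs of a type I and a type II chain and are known above all from epithelia, while vimentin is the filament protein of fibroblasts and other mesenchymal cells. Nestin, best known from neural and muscle progenitors, assembles together with vimentin, and desmin is the filament protein of muscle. Simple-epithelial keratins such as KRT8 and KRT18 are also known at low levels from some cultured cells that are not epithelial.

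Levels are FPKM, fragments counted relative to transcript length and to the mapped fragments of the library, so genes can be compared within a library. Differences between libraries are of log2(FPKM + 1), which understates the change of genes near or below 1 FPKM, and a gene is called higher or lower when that difference is at least 1 in size, which is 2-fold on that scale. With 1 library in each group there are no replicates, no SD and no test, and each difference compares those libraries only. In bulk RNA, fewer cells of a type and less RNA per cell cannot be told apart. In all, 12183 genes reached 1 FPKM in at least 1 library and were compared; 8 of the 10 were among them, and KRT81 and DES were not. HRAS stood at 3153 FPKM in OIS against 41.9 to 49.8 in the other libraries, as its label says. H3F3B, a gene for H3.3, stood at 90.5 FPKM in OIS, 449.7 in H3.3cs1 late, 229 in H3.3cs1 early and 105 in growing. H3F3A, another gene for H3.3, was ordered otherwise, at 236 FPKM in OIS, 132 in H3.3cs1 late, 130 in H3.3cs1 early and 190 in growing. Scaling matters for small differences: bringing all libraries to 1 common FPKM sum over their named genes, called rescaling here, moved the median difference of all genes by -0.20 for OIS against growing and by 0.22 for H3.3cs1 early against growing. The share of higher genes among all called genes was 52.8% as deposited and 37.7% after rescaling for OIS, and 26.1% and 48.3% for H3.3cs1 early.

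All 7 of these keratins had their lowest value in the OIS library, and 5 of them, KRT7, KRT8, KRT18, KRT34 and KRT80, had their highest in H3.3cs1 late. KRT19 and KRT81 peaked in H3.3cs1 early, and the OIS value of KRT81 is a listed 0. VIM and NES were ordered otherwise, with VIM highest in growing and NES highest in OIS as deposited. NES in OIS was close to growing, with a difference of 0.17 that turns to -0.062 after rescaling. None of the 7 keratins had its highest or lowest value in the growing library. KRT10, KRT15 and KRT17, keratins that are not among the 10 genes but reached 1 FPKM, were highest in OIS. How many of all genes tested are lowest in OIS or highest in H3.3cs1 late was not counted. The 10 were picked with these values in view, so nothing about the family is read from these orders.

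**Figure D1:**
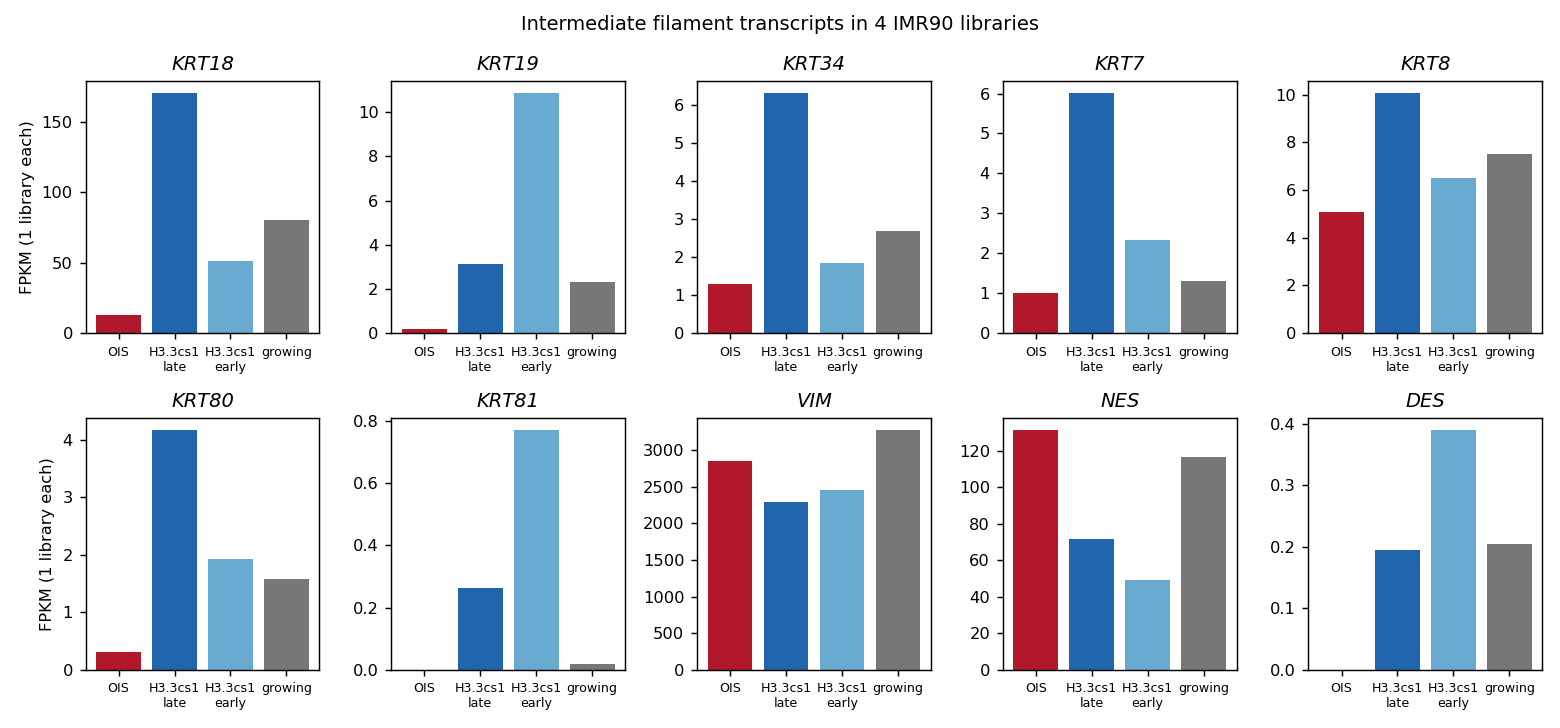
FPKM of each of the 10 genes in the 4 libraries, 1 bar per library and a scale of its own for each gene; there are no error bars because each group has 1 library. KRT18 reaches 170.4 FPKM in H3.3cs1 late and 13.1 in OIS, and VIM lies between 2291 and 3281 FPKM in all 4 libraries.

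KRT18, the type I chain of simple epithelia, was the most abundant keratin in 3 of the 4 libraries. KRT18 stood at 13.1 FPKM in OIS, 170.4 in H3.3cs1 late, 50.9 in H3.3cs1 early and 80.0 in growing. H3.3cs1 late is high and OIS low, with the other libraries between them. Against growing, KRT18 was 5.74-fold lower in OIS (difference -2.52), 2.12-fold higher in H3.3cs1 late (1.08) and not 2-fold apart in H3.3cs1 early (-0.64). H3.3cs1 late was above H3.3cs1 early by 1.72, and OIS was 12.1-fold below H3.3cs1 late. The call of KRT18 in H3.3cs1 late against growing is lost under quantile normalization (0.99).

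KRT8, the type II partner of KRT18, moved much less. KRT8 stood at 5.08 FPKM in OIS, 10.1 in H3.3cs1 late, 6.50 in H3.3cs1 early and 7.50 in growing. Its order is that of KRT18, but no pair of libraries differed by 2-fold as deposited, the widest difference being -0.87 for OIS against H3.3cs1 late. After rescaling that difference is -1.07, which calls KRT8 lower in OIS. The ratio of KRT18 to KRT8 FPKM was 2.58 in OIS, 16.9 in H3.3cs1 late, 7.83 in H3.3cs1 early and 10.7 in growing. KRT8 in H3.3cs1 early was slightly below growing (-0.18), or above it after rescaling (0.047).

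KRT7, a type II keratin of glandular and ductal epithelia, had the widest difference between H3.3cs1 late and growing among the 8 genes that reached 1 FPKM. KRT7 stood at 1.01 FPKM in OIS, 6.01 in H3.3cs1 late, 2.32 in H3.3cs1 early and 1.29 in growing. H3.3cs1 late stands above the rest, 3.06-fold over growing (1.61) and 2.11-fold over H3.3cs1 early (1.08, or 0.90 after rescaling, which ends that call). OIS and growing differed by -0.19.

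KRT19, the smallest type I keratin and one that lacks most of the tail domain of other keratins, peaked at day 3 and not at day 13. KRT19 stood at 0.160 FPKM in OIS, 3.13 in H3.3cs1 late, 10.9 in H3.3cs1 early and 2.33 in growing. The day 3 library is high and OIS is close to 0. Against growing, KRT19 was 2.87-fold lower in OIS (-1.52, or -3.22 with a pseudocount of 0.1) and 3.56-fold higher in H3.3cs1 early (1.83), while H3.3cs1 late was 1.24-fold above growing (0.31). H3.3cs1 late was 2.88-fold below H3.3cs1 early. The ratio of KRT7 to KRT19 was 6.31 in OIS, 1.92 in H3.3cs1 late, 0.213 in H3.3cs1 early and 0.554 in growing, so KRT7 was the more abundant of the pair in OIS and H3.3cs1 late and KRT19 in H3.3cs1 early and growing.

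KRT34, a type I keratin of the hair shaft, stood at 1.30 FPKM in OIS, 6.30 in H3.3cs1 late, 1.84 in H3.3cs1 early and 2.69 in growing. H3.3cs1 late is high, 2.57-fold above H3.3cs1 early (1.36) and just short of 2-fold above growing (0.98, or 1.20 with a pseudocount of 0.1). KRT80, a type II keratin found in many epithelia, stood at 0.311 FPKM in OIS, 4.18 in H3.3cs1 late, 1.92 in H3.3cs1 early and 1.58 in growing. It was 2.004-fold higher in H3.3cs1 late than in growing (1.003), on the edge of the call, and in OIS it was just short of the call (-0.98, or -2.04 with a pseudocount of 0.1, which calls it). KRT81, a type II hair keratin, was listed at 0 in OIS and stood at 0.262 FPKM in H3.3cs1 late, 0.772 in H3.3cs1 early and 0.0175 in growing. A value of 0 in these files is not read as absence, and all 4 values are too low for the 2-fold rule.

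Promoters were at hand for 4 of the 10 genes, from the RefSeq table of GRCh38.p14, which spans 250 bases before to 50 after each gene's start. KRT8 and KRT34 are shown as keratins that are highest in H3.3cs1 late and lowest in OIS, and NES as a filament gene that is highest in OIS as deposited. They lie at chr12:52926420-52926719 on the minus strand, chr17:41382257-41382556 on the minus strand and chr1:156677358-156677657 on the minus strand. Both strands were searched for TGANTCA, the site known for AP-1 factors. The TATA box was searched as TATAAA and the GC box as GGGCGG. The site known for TEAD factors was searched as GGAATG, and capitals mark all matches.
KRT8: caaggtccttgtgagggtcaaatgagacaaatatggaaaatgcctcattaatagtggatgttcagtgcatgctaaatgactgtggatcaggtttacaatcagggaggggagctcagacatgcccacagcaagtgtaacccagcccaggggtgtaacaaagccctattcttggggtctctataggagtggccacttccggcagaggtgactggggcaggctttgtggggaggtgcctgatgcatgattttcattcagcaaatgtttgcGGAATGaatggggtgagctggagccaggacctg
KRT34: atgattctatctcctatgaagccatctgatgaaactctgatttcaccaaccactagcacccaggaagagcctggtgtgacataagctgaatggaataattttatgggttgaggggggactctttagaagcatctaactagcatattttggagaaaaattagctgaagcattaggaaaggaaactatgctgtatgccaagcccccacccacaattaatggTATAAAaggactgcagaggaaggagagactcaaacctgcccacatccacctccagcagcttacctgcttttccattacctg
NES: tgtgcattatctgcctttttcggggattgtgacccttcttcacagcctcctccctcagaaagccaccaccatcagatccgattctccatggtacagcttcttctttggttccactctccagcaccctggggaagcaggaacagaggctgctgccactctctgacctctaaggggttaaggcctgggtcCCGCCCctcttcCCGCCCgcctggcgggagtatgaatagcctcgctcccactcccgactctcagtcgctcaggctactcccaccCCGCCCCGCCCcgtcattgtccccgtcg
KRT34 holds a TATA box that begins 31 bases before the start, a sequence found in 11.5% of the 35116 promoters of that length. KRT8 holds a GGAATG that begins at base 18 of the gene, against 14.0% of promoters with that motif. NES holds 4 GC boxes, of which the last pair overlap by 1 base, and VIM holds 1, against 45.0% of promoters with at least 1. TGANTCA, present in 7.71% of promoters, is not in these windows of KRT8, KRT34, NES or VIM. A match describes the letters and is no evidence of binding. Each window lies at 1 listed start of its gene, and whether the FPKM came from transcripts of that start is not known.

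VIM was among the most abundant transcripts of every library, ranking between 6 and 11 of 22679 symbols. VIM stood at 2858 FPKM in OIS, 2291 in H3.3cs1 late, 2456 in H3.3cs1 early and 3281 in growing. Growing is highest, and no library was 2-fold from another. The differences from growing were -0.20 in OIS, -0.52 in H3.3cs1 late and -0.42 in H3.3cs1 early, the last of which is 0 under quantile normalization.

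NES stood at 131 FPKM in OIS, 71.8 in H3.3cs1 late, 49.3 in H3.3cs1 early and 116 in growing. Both H3.3cs1 libraries are low and the other two are close together. NES was 2.34-fold lower in H3.3cs1 early than in growing (-1.22, or -0.97 after rescaling, which ends the call) and 1.61-fold lower in H3.3cs1 late (-0.69). The small difference of OIS from growing (0.17) turns to -0.062 after rescaling and to -0.016 under quantile normalization. DES, the muscle filament gene, was listed at 0 in OIS and stood at 0.195 FPKM in H3.3cs1 late, 0.390 in H3.3cs1 early and 0.204 in growing, below 1 FPKM throughout.

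**Figure D2:**
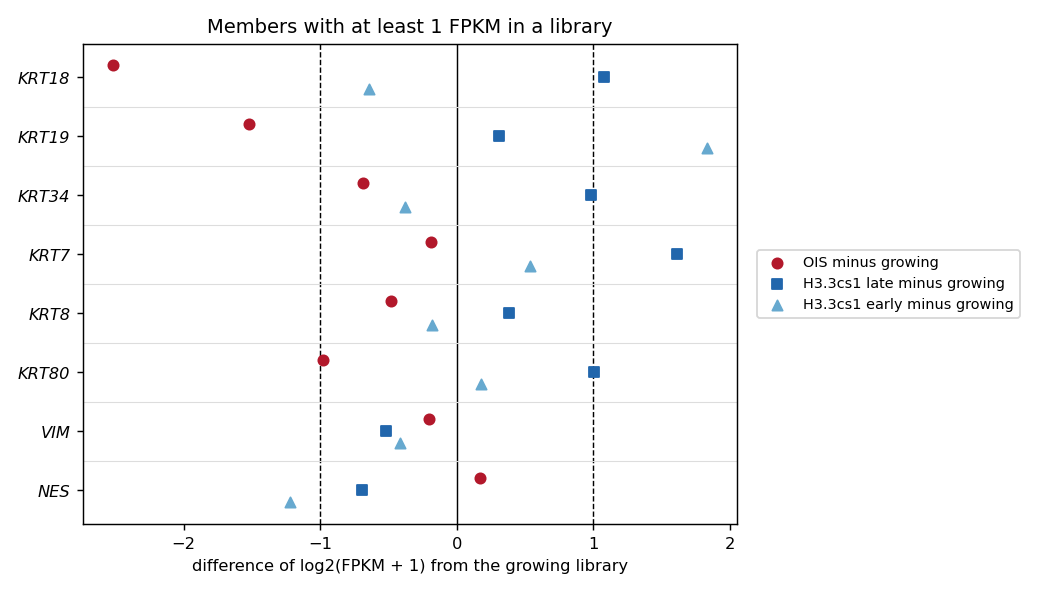
Difference of log2(FPKM + 1) from the growing library for the 8 genes with at least 1 FPKM in a library; circles are OIS, squares H3.3cs1 late and triangles H3.3cs1 early, 1 library each, and dashed lines mark 2-fold. All 6 keratins lie left of 0 in OIS and right of 0 in H3.3cs1 late, with KRT18 at -2.52 and 1.08.

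Counted over the 8 genes that reached 1 FPKM, OIS had 0 higher and 2 lower than growing, KRT18 and KRT19, where 9.13% of all genes tested were higher and 8.17% lower. H3.3cs1 late had 3 higher, KRT7, KRT18 and KRT80, and 0 lower than growing, where 3.51% of all genes were higher and 5.47% lower. H3.3cs1 early had KRT19 higher and NES lower than growing, where 1.4% of all genes were higher and 3.96% lower. The median differences of the 8 genes were -0.58 in OIS, 0.68 in H3.3cs1 late and -0.28 in H3.3cs1 early, each against growing, where the medians over all genes tested were 0.032 in OIS, -0.040 in H3.3cs1 late and -0.025 in H3.3cs1 early. These comparisons share the growing library. H3.3cs1 late against H3.3cs1 early had 3 higher, KRT7, KRT18 and KRT34, and KRT19 lower, where 5.47% of all genes were higher and 3.4% lower, and the median was 0.69 for the 8 genes and -0.044 for all genes. OIS against H3.3cs1 late had 0 higher and 5 lower, KRT7, KRT18, KRT19, KRT34 and KRT80, where 11.2% of all genes were higher and 8.51% lower, and the median was -1.73 for the 8 genes and 0.092 for all genes. The genes were picked with these values in view, so nothing about the family is read from those counts. OIS differs from growing in vector, tamoxifen and time in culture, and H3.3cs1 early differs from growing in time since infection. OIS also differs from H3.3cs1 late in tamoxifen and day, at 10 nM and day 8 against 0 nM and day 13. None of these can be told apart here from the RAS fusion or the cleaved histone.

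As a pool, the cytoplasmic filament transcripts were mostly vimentin in every library. Over the 66 keratin, type III, type IV and lens filament genes in the files, VIM made up 93.2% of the summed FPKM in OIS, 88.0% in H3.3cs1 late, 93.9% in H3.3cs1 early and 92.8% in growing. Keratins made up 2.097% in OIS, 8.60% in H3.3cs1 late, 3.60% in H3.3cs1 early and 3.46% in growing. H3.3cs1 late has the largest keratin share and OIS the smallest. The summed keratin FPKM was 64.3 in OIS, 223.7 in H3.3cs1 late, 94.2 in H3.3cs1 early and 122.4 in growing, and KRT18 alone held 20.4% of it in OIS, 76.2% in H3.3cs1 late, 54.0% in H3.3cs1 early and 65.3% in growing. Type I chains exceeded type II chains in all 4 libraries, by 8.17 to 1 in OIS, 9.84 to 1 in H3.3cs1 late, 7.07 to 1 in H3.3cs1 early and 10.8 to 1 in growing.

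**Figure D3:**
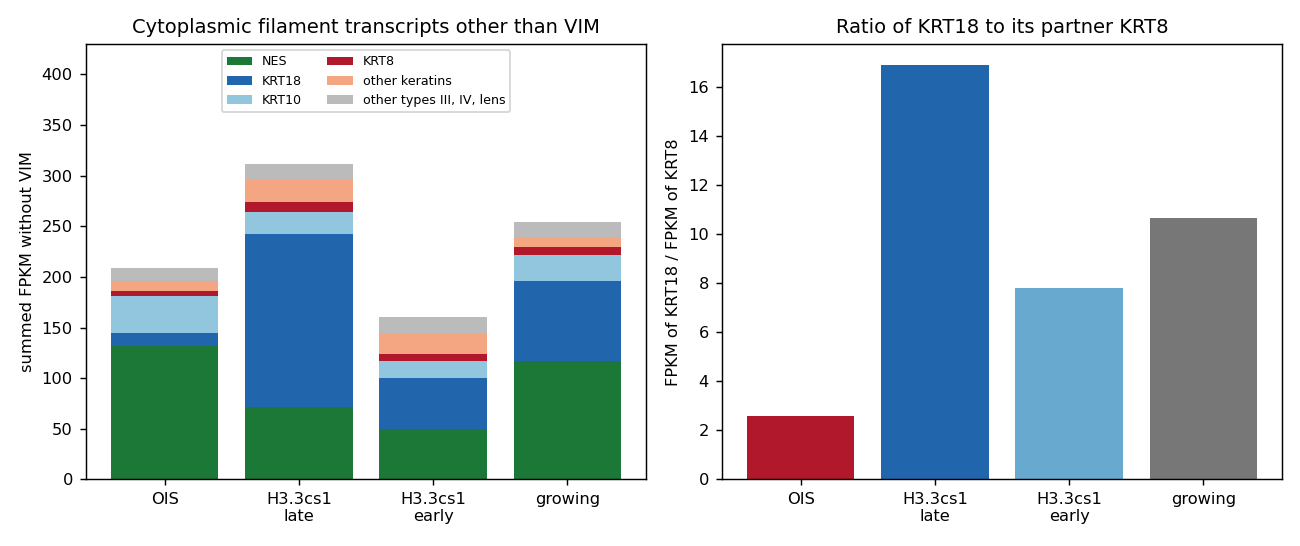
Left, summed FPKM of the cytoplasmic filament genes other than VIM in each library, stacked by gene or gene group; right, FPKM of KRT18 divided by that of KRT8 in each library. NES is the largest block in OIS and in growing. KRT18 is the largest in H3.3cs1 late and, narrowly, in H3.3cs1 early (50.9 against 49.3 for NES). The ratio runs from 2.58 in OIS to 16.9 in H3.3cs1 late.

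Elsewhere in the family most genes had little or no signal. Of the 66 genes, 16 reached 1 FPKM in a library, 50 did not, and 27 were listed at 0 in all 4. Beyond the 8 above, the genes that reached it were KRT10, KRT15, KRT17, NEFM, NEFH, INA, SYNM and BFSP1. KRT10, KRT15 and KRT17 each had their highest value in OIS, where KRT18 had its lowest. KRT10, the type I keratin of suprabasal epidermis, stood at 36.8 FPKM in OIS, 21.4 in H3.3cs1 late, 17.2 in H3.3cs1 early and 25.3 in growing, which made it the leading keratin of OIS. It was not called in any of the 5 comparisons made here, and OIS against H3.3cs1 early, where its values lie farthest apart, was not among them. KRT17, a keratin of wounded and hyperproliferative skin, stood at 1.33 FPKM in OIS, 0.144 in H3.3cs1 late, 0.184 in H3.3cs1 early and 0.0194 in growing. It was called higher in OIS than in growing (1.19, or 3.58 with a pseudocount of 0.1). With that pseudocount its very low values in H3.3cs1 late (1.03) and H3.3cs1 early (1.25) are also called higher than growing. The call of KRT17 in OIS over H3.3cs1 late (1.03) is lost after rescaling and after centring on the median. KRT15, a basal keratin, stood at 3.75 FPKM in OIS, 1.23 in H3.3cs1 late, 1.13 in H3.3cs1 early and 1.51 in growing. It was 2.13-fold higher in OIS than in H3.3cs1 late (1.09, or 0.91 after rescaling). Against growing, KRT15 in OIS differed by 0.92, or by 1.25 with a pseudocount of 0.1, which calls it. Of the 5 type IV genes that reached 1 FPKM, NES was the one called in a comparison with growing under the settings above. With a pseudocount of 0.1, NEFH was also called lower in H3.3cs1 late (-1.06, or -0.64 as above) and NEFM lower in H3.3cs1 early (-1.42, or -0.85 as above). INA, a neuronal filament gene, lay between 5.62 and 9.59 FPKM.

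The lamins are the nuclear members of the superfamily, and of the 3 genes, LMNA and LMNB1 were lower than growing in OIS, LMNB1 and LMNB2 in H3.3cs1 late and LMNB1 in H3.3cs1 early. Among all genes tested, 8.17% were lower than growing in OIS, 5.47% in H3.3cs1 late and 3.96% in H3.3cs1 early. LMNA stood at 228 FPKM in OIS, 357 in H3.3cs1 late, 443 in H3.3cs1 early and 486 in growing, and was 2.13-fold lower in OIS than in growing. LMNB1 changed more, at 0.989 FPKM in OIS, 1.09 in H3.3cs1 late, 5.03 in H3.3cs1 early and 30.8 in growing. Its differences from growing were -4.00 in OIS, -3.92 in H3.3cs1 late and -2.40 in H3.3cs1 early. LMNB2 differed from growing by -1.26 in H3.3cs1 late.

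Several genes whose products bind filaments were low in OIS. Of the 5 small heat shock genes that reached 1 FPKM, 3 were lower in OIS than in growing, CRYAB, HSPB1 and HSPB8, and CRYAB was higher in H3.3cs1 late and in H3.3cs1 early, each against growing. Among all genes tested, 8.17% were lower and 9.13% higher than growing in OIS. In H3.3cs1 late 5.47% were lower and 3.51% higher, and in H3.3cs1 early 3.96% were lower and 1.4% higher. Some calls depend on the setting. HSPB7 stood at 0.0131 FPKM in OIS, 2.15 in H3.3cs1 late, 1.11 in H3.3cs1 early and 0.828 in growing. Its difference from growing was -0.85 in OIS and 0.79 in H3.3cs1 late, or -3.04 in OIS and 1.28 in H3.3cs1 late with a pseudocount of 0.1, which calls both. HSPB8 in H3.3cs1 early was 0.96 above growing and reached 1.21 among the alternatives. CRYAB, the chaperone alpha B crystallin, which binds vimentin and desmin filaments, stood at 1.11 FPKM in OIS, 42.3 in H3.3cs1 late, 13.3 in H3.3cs1 early and 4.40 in growing. HSPB1 stood at 287 FPKM in OIS, 1075 in H3.3cs1 late, 812 in H3.3cs1 early and 813 in growing, a 2.82-fold fall in OIS. DSP, desmoplakin, which ties filaments to desmosomes, stood at 3.93 FPKM in OIS, 20.1 in H3.3cs1 late, 9.95 in H3.3cs1 early and 12.6 in growing, and was 2.77-fold lower in OIS (-1.47). OIS is the low library for all of these. JUP, plakoglobin, a desmosome protein, was highest in OIS and stood at 63.8 FPKM in OIS, 42.6 in H3.3cs1 late, 36.8 in H3.3cs1 early and 27.0 in growing, 2.31-fold higher in OIS (1.21, or 0.97 after rescaling). Of 12 desmosome genes, 4 reached 1 FPKM, with PKP2 called higher in H3.3cs1 late, just past 2-fold, and DSG2 higher in H3.3cs1 early. With a pseudocount of 0.1, the log2 difference of PKP2 from growing is 2.65 in H3.3cs1 late, and PKP2 is also called lower in OIS. PKP2 stood at 0.00746 FPKM in OIS, 1.27 in H3.3cs1 late, 0.0185 in H3.3cs1 early and 0.118 in growing. Its OIS call therefore rests on very low values. PLEC, the linker plectin, was listed at 0 in OIS and H3.3cs1 early but at 133 FPKM in H3.3cs1 late and 128 in growing, and no direction is read from it. DST, the third linker that reached 1 FPKM, was not called against growing, but its difference in OIS was -0.88 and reached -1.10, past 2-fold, among the alternatives. Of 8 kinases known to phosphorylate vimentin or keratins, CDK1, AURKB and PLK1, which act on filaments in mitosis, were lower than growing in OIS, H3.3cs1 late and H3.3cs1 early, and PRKCA was lower in OIS.

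**Figure D4:**
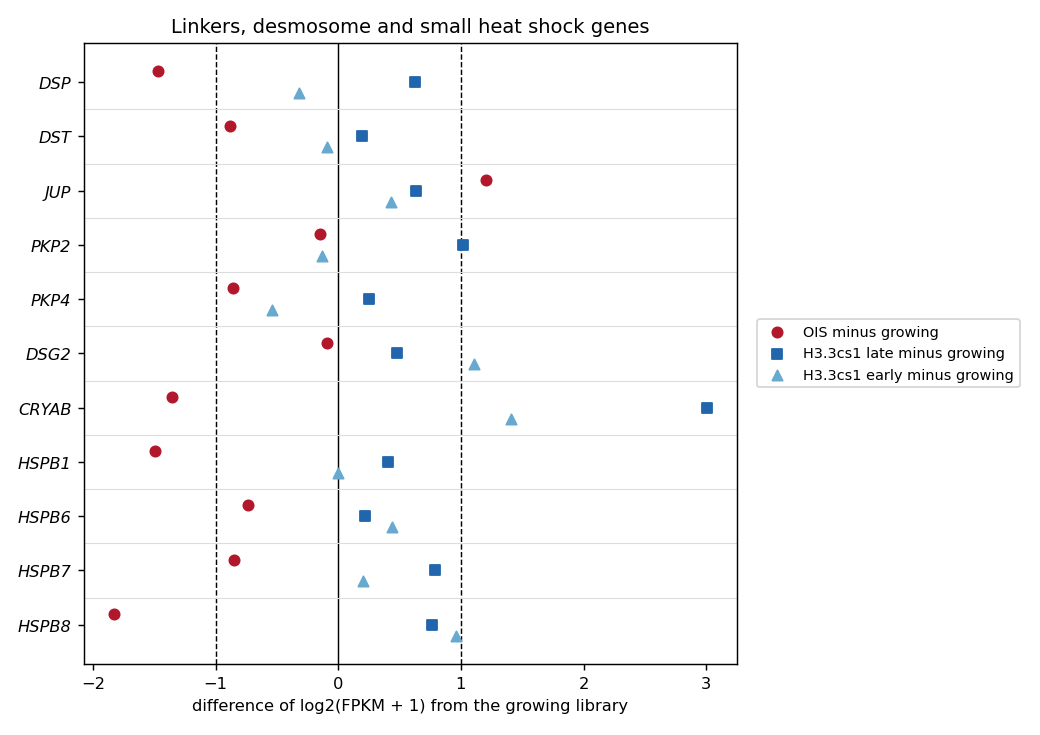
Difference of log2(FPKM + 1) from the growing library for genes of linkers, desmosomes and small heat shock proteins that reached 1 FPKM, without PLEC; circles are OIS, squares H3.3cs1 late and triangles H3.3cs1 early, 1 library each, and dashed lines mark 2-fold. CRYAB spans the widest range, from -1.36 in OIS to 3.01 in H3.3cs1 late, and JUP lies right of 0 in all 3.

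The fibroblast label held in all libraries, with 9 of 9 fibroblast markers in the files at 1 FPKM or more, COL1A1 among them at 1012 FPKM in OIS, 5172 in H3.3cs1 late, 1862 in H3.3cs1 early and 4156 in growing. These markers were themselves unequal: 6 of the 9 were lower in OIS than in growing, 1 was higher in H3.3cs1 late, and 1 was higher and 2 lower in H3.3cs1 early. Of those 2, COL1A1 (-1.16) loses its call after rescaling and under quantile normalization, where it reaches -0.90. Among all genes tested, 8.17% were lower than growing in OIS and 3.51% higher in H3.3cs1 late. In H3.3cs1 early, 1.4% were higher and 3.96% lower. The summed FPKM of the 9 markers was 4324 in OIS, 11396 in H3.3cs1 late, 5902 in H3.3cs1 early and 9536 in growing. Much of that sum in H3.3cs1 late is COL1A1, COL1A2 (2720) and FN1 (2507). The sum is lowest in OIS and highest in H3.3cs1 late, as are KRT18, COL1A1, COL1A2, PDGFRB, THY1 and LUM. Other markers were ordered otherwise, with PDGFRA highest in OIS (52.3 FPKM), DCN in growing (391) and S100A4 in H3.3cs1 early (18.3). FN1 lay between 2215 and 2507 FPKM in all 4 libraries. Of 16 epithelial markers, CLDN4 and MUC1 reached 1 FPKM, and the summed FPKM of the list was 7.49 in OIS, 6.69 in H3.3cs1 late, 8.89 in H3.3cs1 early and 4.49 in growing. Among those below 1 FPKM, ELF3 stood at 0.946 FPKM in OIS and 0.0184 in growing and was listed at 0 in both H3.3cs1 libraries. ESRP2 lay between 0.685 and 0.818 FPKM in all 4 libraries. CDH1, the epithelial cadherin, was at most 0.116 FPKM and EPCAM at most 0.495, while ESRP1, GRHL2 and NKX2-1 were listed at 0 in all 4. MUC1 stood at 1.06 FPKM in OIS, 4.57 in H3.3cs1 late, 2.99 in H3.3cs1 early and 1.67 in growing, with its only call against growing in H3.3cs1 late. CLDN4 stood at 3.90 FPKM in OIS, 0.900 in H3.3cs1 late, 4.25 in H3.3cs1 early and 1.54 in growing. It was called higher than growing in H3.3cs1 early (1.05) and was 0.95 above growing in OIS, or 1.29 with a pseudocount of 0.1, which calls it. The 7 mesothelial markers summed to 1.35 FPKM in OIS, 1.05 in H3.3cs1 late, 2.91 in H3.3cs1 early and 0.560 in growing. CALB2 stood at 0.884 FPKM in OIS, where KRT19 is lowest, 0.278 in H3.3cs1 late, 1.76 in H3.3cs1 early, where KRT19 is highest, and 0.0997 in growing. It was called higher than growing in H3.3cs1 early (1.33), and its difference in OIS was 0.78, or 2.30 with a pseudocount of 0.1, which calls it. BNC1 stood at 0.231 FPKM in OIS, 0.137 in H3.3cs1 late, 0.455 in H3.3cs1 early and 0.0319 in growing. MSLN was at most 0.0802 and ITLN1 was listed at 0 throughout. The part of fibroblast, epithelial or mesothelial marker levels in the keratin values was not tested. Of 10 muscle markers, TNNT1 and TNNT2 reached 1 FPKM, both in H3.3cs1 late, and MYOD1 was listed at 0 in all 4, as was SOX2 of the 7 neural progenitor markers, none of which reached 1 FPKM.

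How reads of similar genes were divided limits some of these values. In GENCODE 29, KRT18 has 68 and KRT8 has 50 named pseudogenes, of which the files list 1 each. Of the 50-base windows of the longest coding transcript, 43.4% in KRT18, 44.6% in KRT81 and 38.2% in VIM occur identically, on either strand, in transcripts of other genes. KRT18 shares them with KRT8, which overlaps it on the opposite strand, and with its pseudogenes, KRT81 with KRT86 and other hair keratins, and VIM with its antisense transcripts. The share was 0% in NES, 1.79% in KRT19, 3.73% in KRT8, 10.8% in KRT7 and 11.4% in KRT34. How the pipeline treated strand, and reads with several matching places, is unknown. The levels of KRT18, KRT81 and VIM are therefore uncertain by what such reads add or remove. KRT8 has fewer shared windows but overlaps KRT18, so its level and the ratio of KRT18 to KRT8 are uncertain too. KRT80, KRT7, KRT81, KRT8 and KRT18 lie on chromosome 12, where KRT8 and KRT18 are direct neighbours, and KRT19 and KRT34 lie on chromosome 17.

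Over the 4 libraries, the single genes with the pattern closest to KRT18, the member of widest range, were LOX, a collagen cross-linking enzyme, BST1, an enzyme on the cell surface, and TMEM47, a membrane protein. Their distances from it were 0.22, 0.25 and 0.36, taken as the Euclidean distance of log2(FPKM + 1) after subtracting each gene's mean, among 11576 genes. LOX stood at 50.8 FPKM in OIS, 687 in H3.3cs1 late, 222 in H3.3cs1 early and 362 in growing. For KRT19 the closest were PPAP2B, PARP9 and AMDHD2 at distances of 0.84 to 0.88, so no gene matched it closely. For KRT80 they were GPR1, PEA15 and FSCN2 at 0.10 to 0.15. With 4 values a gene, many genes can lie this close, and nothing is read from the names.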

How the data were processed

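Poly(A) RNA of 4 libraries, 1 each of OIS, H3.3cs1 late, H3.3cs1 early and growing cells, was prepared with the TruSeq RNA v2 kit, per the labels' protocols. The deposited values are FPKM per locus. Per the submitters' processing notes, hg19, Cufflinks 2.1.1, TopHat2 2.0.3 and Bowtie2 were used, in roles that are not stated. The sources used here do not give the counting, the strand, any filter or a normalization across libraries. Header names are shifted by 1 field, so each value column was taken by position.

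Of 26468 loci, 2310 without a gene name, holding 47.4% to 57.9% of the summed FPKM of a library, were left out. Lines of 1 symbol were summed and joined loci kept under their joined name. Genes with at least 1 FPKM in at least 1 library (12183) were compared as differences of log2(FPKM + 1). No counts are at hand. Steps among low values put depth at about 84.4% in OIS, 77.8% in H3.3cs1 late and 96.1% in H3.3cs1 early of that in growing, a rough estimate. With 1 library a group no test or interval was possible.

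The 10 members, the 16 gene lists, the 2-fold rule and the 9 alternatives were chosen with earlier results of these data known. Named were all members, genes of the lists that reached 1 FPKM and defining markers. Also named were HRAS, H3F3B, H3F3A and the 3 nearest genes of each of the 3 members of widest range. Markers of other cell types named with values below 1 FPKM are outside that rule. The calculation was tested on simulated data, with changes placed only in genes of higher FPKM in growing. How well it calls changes in genes of low FPKM was not simulated. Python 3.11.15, pandas 2.3.3, numpy 2.4.6 and matplotlib 3.10.9 were used. Promoters are from RefSeq (GRCh38.p14) and transcripts from GENCODE 29 (GRCh38). Both are another build than hg19 and were used for sequence and gene order only.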

Additional observations from a re-analysis of the deposited data

Results flagged for a closer look

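KRT18 and KRT19 were each more than 2-fold from growing in opposite directions in a pair of groups. The difference of KRT18 from growing was -2.52 in OIS and 1.08 in H3.3cs1 late, which lie -3.60 apart on the log2(FPKM + 1) scale. The difference of KRT19 from growing was -1.52 in OIS and 1.83 in H3.3cs1 early, which lie -3.35 apart. Each group has 1 library and the growing library is shared, so neither difference between groups was tested.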

How the results depend on the processing

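Of 365 member differences under the 9 alternatives, 349 kept their direction and their side of 2-fold and none that was called turned round. Many of the 349 could not change. Each member has 1 line and none is in a joined locus, so the choice of line and joined loci leave its difference as it is. A higher filter and leaving out genes listed at 0 only remove genes. Dropping the filter adds KRT81 and DES, whose differences are then set against the same values. Among 40 each, 37 stayed the same with a pseudocount of 0.1, 34 after rescaling, 38 after centring and 35 under quantile normalization. KRT18 in OIS against growing ranged from -2.74 to -2.52, and KRT19 in H3.3cs1 early against growing from 1.83 to 2.17. The counts of members in each direction stayed within 1.5 times the main count, except that after rescaling 0 members (and 0 of the 66 filament genes) in place of 1 were lower in H3.3cs1 early than in growing. Of the filament genes with a pseudocount of 0.1, 3 in place of 1 were higher in OIS, 5 in place of 3 higher and 1 in place of 0 lower in H3.3cs1 late, and 3 in place of 1 higher and 2 in place of 1 lower in H3.3cs1 early, each against growing. With that pseudocount 5 in place of 3 were higher in H3.3cs1 late than in H3.3cs1 early. With a filter at 5 FPKM, 0 were higher in OIS than in growing. Against H3.3cs1 late, 2 filament genes were higher in OIS, but 0 with the filter at 5 FPKM, 0 after rescaling and 1 after centring. Over all genes, 171 were higher in H3.3cs1 early than in growing, 316 after rescaling and 437 with a pseudocount of 0.1. In H3.3cs1 late 428 were higher than growing, or 743 with that pseudocount, and in OIS 995 were lower, or 1523. H3.3cs1 late against H3.3cs1 early had 414 lower, 808 after rescaling and 910 with that pseudocount, and its share of higher genes was 61.7%, or 36.4% after rescaling; for OIS against H3.3cs1 late it was 56.8%, or 41.3%. The cause was not tested. No paired analysis was possible because each group has 1 library.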
